A study of Mus musculus with 41 samples.

Results

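The 6 libraries described here came from the gut of Id2KO mouse embryos on embryonic day 11.5 (E11.5): 3 of EpCAM+ epithelium and 3 of EpCAM- mesenchyme, chosen by their titles out of the 41 libraries of the series. Id2 encodes a helix-loop-helix protein without a DNA-binding region, and Id2KO stands in the labels for its knockout. The labels give a mixed C57BL/6 and CD1 strain and small intestine as the tissue, but not the allele. Mesenchyme is defined here by the absence of EpCAM at the cell surface, so it can hold any EpCAM- cell type of the gut wall. Marker genes of other cell types, given further on, describe what these libraries held. The same 2 tissues of wild-type embryos, also 3 libraries each, served to set the Id2KO difference beside that of the wild type. Each library was made from 250 cells isolated by flow cytometry, and per the labels each E11.5 replicate was a single embryo. If so, p-values measure the spread between embryos and between sorts. That spread was estimated from the Id2KO and wild-type libraries together. Polyadenylated RNA was reverse transcribed with a SMARTer kit, amplified over 15 cycles and sequenced as single-end reads of 50 bases. The 6 Id2KO libraries held 31725453 to 38937235 counts over genes, and 14503 to 16237 genes had a count in each.

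At this stage the gut tube is a simple epithelium of endodermal origin wrapped in mesoderm-derived mesenchyme. The layers signal to each other: epithelium secretes hedgehog and PDGF ligands that mesenchyme receives, and mesenchyme secretes BMPs, Wnts, R-spondins and FGFs. Epithelial cells are joined by E-cadherin and claudins, and repressors of the Snail, Zeb and Twist families bind E-boxes and switch these genes off in mesenchyme. Id proteins pair with E proteins, the broadly expressed basic helix-loop-helix (bHLH) factors that bind E-boxes, and keep them and their tissue-specific partners off DNA. EpCAM, the surface protein used in the sort, is an epithelial adhesion molecule.

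Levels are given as CPM (counts scaled to library size), with sizes rescaled by edgeR's TMM factors, in the order of replicates 1, 2 and 3. Differences are log2 fold changes of Id2KO EpCAM+ epithelium over Id2KO mesenchyme ± standard error, with n = 3 libraries in each group. Calls rest on an adjusted p under 0.05 in edgeR's quasi-likelihood test over all 15680 genes. CPM are not divided by transcript length, so levels are compared between libraries and not between genes. In these bulk libraries fewer cells of a type and less RNA per cell cannot be told apart. Most named genes were picked by their p or fold change. Statements that their libraries did not overlap are therefore descriptions and not further support.

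Some libraries stood apart in ways that touch the results. Xist, the RNA of the inactive X chromosome, was at 843 and 315 CPM in replicate 1 of Id2KO EpCAM+ cells and of Id2KO mesenchyme, and at 0.465 to 1.32 CPM in the other 4 Id2KO libraries, which instead carried the Y-linked Ddx3y at 123.8 to 174.1 CPM. All 6 wild-type libraries carried both Xist (191.9 to 507.2 CPM) and Ddx3y (11.6 to 23.3 CPM), although the labels describe single embryos. Genotype and this difference in sex-linked transcripts cannot be told apart. Whether the spread of the wild-type libraries is that between single embryos is not known. Leucocyte transcripts were high in replicates 1 and 2 of Id2KO EpCAM+ cells and near 0 in replicate 3. All 3 wild-type EpCAM+ libraries also carried them. Pancreatic transcripts were high in replicate 2 of Id2KO EpCAM+ cells alone. Replicate 3 of Id2KO mesenchyme had the lowest summed level of neural crest genes and the highest levels of Hoxa10, Hoxc10, Hoxd10 and Hoxd11.

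Id2 itself checked the labels. It was at 154, 142 and 174 CPM in Id2KO EpCAM+ cells and 113, 127 and 166 CPM in Id2KO mesenchyme, against 4682, 5412 and 6299 CPM in wild-type EpCAM+ cells and 2727, 3320 and 3233 CPM in wild-type mesenchyme. The remaining transcript overlapped between the 2 Id2KO tissues (log2 fold change 0.21 ± 0.17, adjusted p = 0.418). The files do not show which part of the gene was deleted, so the remaining counts are not a measure of function. Epcam, the gene of the sorting marker, was at 1712, 1570 and 1615 CPM in epithelium, against 5.43, 1.75 and 6.1 CPM in mesenchyme (log2 fold change 8.53 ± 0.47, adjusted p = 1.54e-08), and the groups were far apart. Col3a1, a fibrillar collagen of mesenchyme, was at 0.717, 2.37 and 1.21 CPM in epithelium, against 587, 539 and 796 CPM in mesenchyme (-8.79 ± 0.46, adjusted p = 8.51e-09), the reverse order. Smoc2, a secreted calcium-binding modulator of BMP signalling that also marks adult intestinal stem cells, did not pass the test: it was at 310.4, 203 and 201 CPM in epithelium, against 128, 199 and 160.2 CPM in mesenchyme (0.55 ± 0.25, adjusted p = 0.13). The lowest epithelial library lay next to the highest mesenchymal one, and the groups did not overlap. In the wild type Smoc2 was at 1.14, 0.653 and 1.396 CPM in epithelium and 103, 106 and 75.4 CPM in mesenchyme. Lgr5, an R-spondin receptor of stem cells, was low, at 6.698, 2.15 and 7.14 CPM in epithelium, against 1.31, 0.09304 and 0.142 CPM in mesenchyme. Its difference did not pass the test (3.37 ± 1.25, adjusted p = 0.0662), though it did without Id2KO mesenchyme replicate 1 (5.49, adjusted p = 0.0181) and without wild-type mesenchyme replicate 3 (3.37, adjusted p = 0.0343). It also passed in DESeq2 (3.38, adjusted p = 0.0111) and with 5 groups in the fit (3.41, adjusted p = 0.0133).

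**Figure D1:**
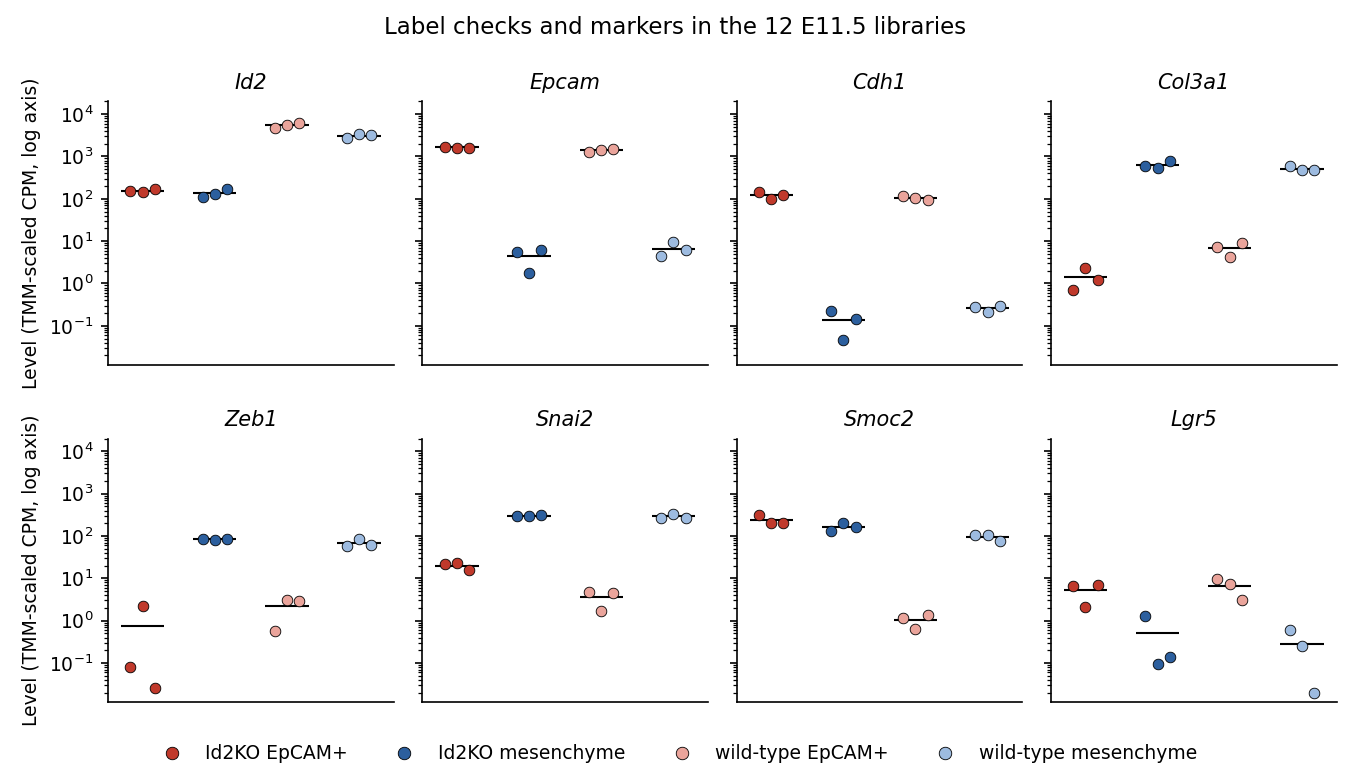
Each point is 1 library, as TMM-scaled CPM on a log axis, and each line a group mean; values under 0.02 are drawn at 0.02. Epcam and Cdh1 were high in both EpCAM+ groups, Col3a1, Zeb1 and Snai2 in both mesenchymes, Id2 was lower in all 6 Id2KO libraries, and of the 4 groups wild-type EpCAM+ cells were lowest for Smoc2.

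Across the genome 2067 of 15680 genes (13.2%) were higher in Id2KO epithelium than in Id2KO mesenchyme and 1692 (10.8%) were lower. These shares are the background of every Id2KO list count below. The median log2 fold change over all genes was 0.01. Many differences were between presence and absence of counts. No Id2KO mesenchyme library had a count for 221 genes that averaged at least 1 CPM in epithelium, 42 of them at least 5 CPM. In turn, no Id2KO EpCAM+ library had a count for 16 genes that averaged at least 5 CPM in mesenchyme. A measure of how cleanly the sort parted the tissues came from genes of the other layer. The median of 22 mesenchymal matrix genes in the Id2KO EpCAM+ libraries was 0.966, 1.41 and 0.233% of their mean in Id2KO mesenchyme. In wild-type EpCAM+ libraries it was 3.08, 2.08 and 2.29% of the mean in wild-type mesenchyme. The median of 20 junction genes in Id2KO mesenchyme was 0.606, 0.837 and 0.496% of their mean in Id2KO epithelium, and 0.717, 1.02 and 0.695% in the wild type.

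**Figure D2:**
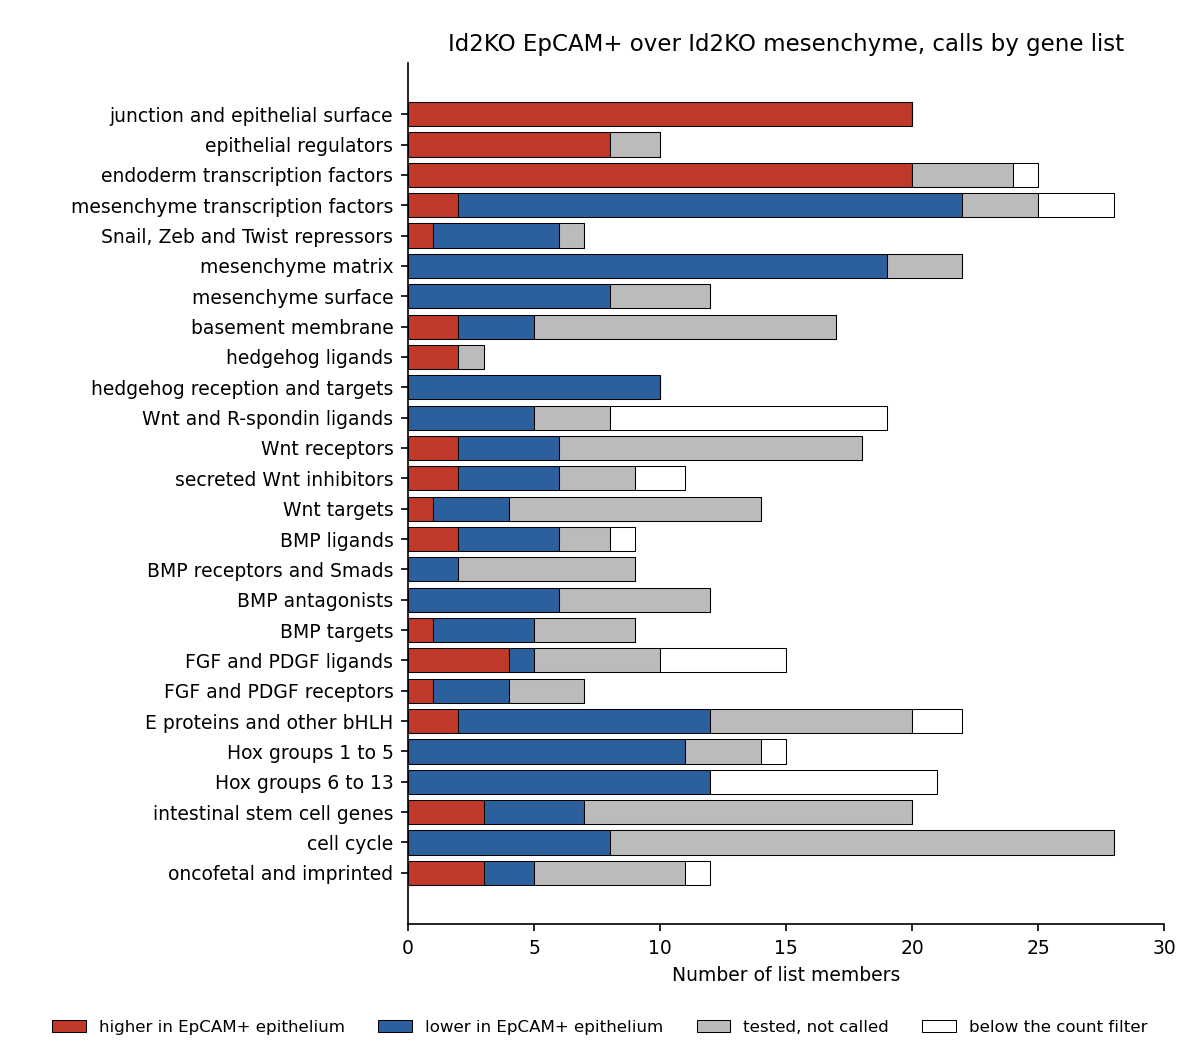
Bars count the members of each gene list that were higher, lower, tested without a call or below the count filter in Id2KO EpCAM+ epithelium over Id2KO mesenchyme. All 20 junction genes were higher and all 10 hedgehog reception genes lower, whereas the cell cycle and Wnt receptor lists were mostly without a call.

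All 20 genes of epithelial adhesion, tight junctions and keratins were higher in Id2KO epithelium, with a median log2 fold change of 7.63. Cdh1, which encodes E-cadherin, was at 142, 97.6 and 120.0 CPM in epithelium, against 0.218, 0.0465 and 0.142 CPM in mesenchyme (9.82 ± 0.37, adjusted p = 4.1e-10). The claudin gene Cldn6 was at 818, 815 and 782 CPM in epithelium, against 1.25, 0.9304 and 1.17 CPM in mesenchyme (9.5 ± 0.24, adjusted p = 1.58e-11), and Cldn3, another claudin of tight junctions, at 279.9, 257 and 257 CPM in epithelium, against 0.281, 0.442 and 0.485 CPM in mesenchyme (9.33 ± 0.33, adjusted p = 2.99e-10). F11r encodes the junctional adhesion molecule JAM-A and had a smaller difference, with several CPM in mesenchyme. It was at 442, 444 and 451 CPM in epithelium, against 8.93, 13.5 and 12.97 CPM in mesenchyme (5.24 ± 0.2, adjusted p = 4.1e-10). The libraries of the 2 tissues did not overlap for any of these genes, and the call for each of the 20 held without every single library.

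The promoter of Epcam is shown because it belongs to the sorting marker and holds 2 E-boxes, the element that Snail and Zeb repressors bind. The window is the 250 bases before the annotated start at chr17:87635729-87635978 on the plus strand of GRCm38.p6, credited to RefSeq; the counts were made on mm9. Capitals mark CAGGTG and its reverse complement CACCTG, the E-box searched on both strands.

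Epcam: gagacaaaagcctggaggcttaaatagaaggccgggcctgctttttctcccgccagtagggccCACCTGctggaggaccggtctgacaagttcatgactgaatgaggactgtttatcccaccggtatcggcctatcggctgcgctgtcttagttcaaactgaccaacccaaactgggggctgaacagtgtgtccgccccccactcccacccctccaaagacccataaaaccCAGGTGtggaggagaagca

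The same 6 letters were in 5252 of 27025 genes with a promoter window (19.4%), and in 11 of the 14 junction genes that had a window (78.6%). A match describes letters only and does not show binding.

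The regulators of epithelial state followed the junction genes. Of 10 splicing and transcription regulators 8 were higher, 0 were lower and 2 had no call, with a median log2 fold change of 7.77, or 6.98 with the gene at 0 in mesenchyme set to its bound. Grhl2, a Grainyhead factor that activates Cdh1 and claudin genes, was at 37.6, 32.1 and 36.2 CPM in epithelium, against 0.0936, 0.09304 and 0.05701 CPM in mesenchyme (8.7 ± 0.44, adjusted p = 6.59e-09). The splicing regulator Esrp1 was at 59.6, 80.1 and 75.5 CPM in epithelium, against 0.156, 0.582 and 0.142 CPM in mesenchyme (7.86 ± 0.47, adjusted p = 3.24e-08). Its paralogue Esrp2 was at 15.1, 21.7 and 17.02 CPM in epithelium, against 0, 0.0233 and 0 CPM in mesenchyme, where a single count gave a ratio of 1988 with an exact 95% counting interval of 356 to 78545. Elf3, an ETS factor of epithelia, was at 114, 213 and 157 CPM in epithelium, against 3.75, 1.02 and 2.17 CPM in mesenchyme (6.14 ± 0.48, adjusted p = 6.14e-07). For these 4 genes the tissues did not overlap in any library.

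Endoderm transcription factors were also higher: 20 of 24 tested members of a list of 25, with 0 lower. Their median log2 fold change was 8.0, or 7.22 with the 2 genes at 0 in mesenchyme set to their bounds. Foxa1, a pioneer factor of endoderm, was at 179, 164 and 202 CPM in epithelium, against 0.343, 0.116 and 0.428 CPM in mesenchyme (9.29 ± 0.37, adjusted p = 6.88e-10). The zinc finger gene Gata4 was at 84.3, 96.8 and 109 CPM in epithelium, against 0.125, 0.186 and 0.05701 CPM in mesenchyme (9.54 ± 0.6, adjusted p = 6.05e-08). Isx, a homeobox gene of intestinal epithelium, was at 279, 263 and 324 CPM in epithelium, against 0.499, 0.582 and 0.513 CPM in mesenchyme (9.07 ± 0.31, adjusted p = 2.48e-10), with libraries close to each other within each tissue.

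Of the 12 largest rises, taken among genes with at least 20 CPM in the higher tissue and no overlap, 10 kept their call without each single library. The homeobox gene Hhex, a factor of ventral foregut, liver and pancreas buds, led them at 10.97, 57.8 and 13.02 CPM in epithelium with no count in mesenchyme, at least 329-fold higher against a floor of 3 counts per library. Replicate 2 held most of it. Crp, which encodes C-reactive protein, was at 41.1, 30.1 and 58.9 CPM in epithelium, against 0, 0.0233 and 0 CPM in mesenchyme, a ratio of 4750 with an exact 95% counting interval of 852 to 187647. Nkx6-2, a homeobox gene, was at 8.99, 40.6 and 53.4 CPM in epithelium, against 0, 0.0233 and 0 CPM in mesenchyme. Pdx1, the homeobox gene of duodenum and pancreas, was at 2.84, 37.9 and 22.6 CPM in epithelium, against 0, 0.0233 and 0 CPM in mesenchyme (adjusted p = 2.59e-05), so both Nkx6-2 and Pdx1 were lowest in replicate 1. Slc51a, a subunit of the basolateral bile acid exporter, was at 55.6, 38.6 and 64.6 CPM in epithelium, against 0, 0 and 0.05701 CPM in mesenchyme, a ratio of 2898 with an exact 95% counting interval of 802 to 23932. The further 5 were Clic5, Apcs, Rnf43, Serpina1e and Mal2, with mean levels of 28.9, 22.9, 21.9, 37.3 and 21.6 CPM in epithelium and 1 or 2 counts in all mesenchyme libraries together. The 12 were completed by Mrc1 and Ly86, genes of macrophages, described with the other cell types.

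The mesenchyme transcription factors went the other way, with 20 of 25 tested members lower in epithelium and 2 higher, out of a list of 28. Their median log2 fold change was -6.45, or -6.20 with the 4 genes at 0 in epithelium at their bounds. Tcf21, a bHLH factor of visceral mesenchyme, was at 6.78, 3.19 and 6.35 CPM in epithelium, against 418, 454 and 556 CPM in mesenchyme (-6.45 ± 0.29, adjusted p = 2.27e-09). The forkhead gene Foxf2, a hedgehog target in gut mesenchyme, was at 0.1103, 0.1997 and 0.0527 CPM in epithelium, against 81.3, 82.95 and 90.2 CPM in mesenchyme (-9.4 ± 0.69, adjusted p = 3.08e-07). Nkx2-3, a homeobox gene of gut and spleen mesenchyme, was at 1.38, 0.574 and 0.2899 CPM in epithelium, against 52.97, 113 and 85.2 CPM in mesenchyme (-6.81 ± 0.53, adjusted p = 5.14e-07). Hand1 and Hand2, bHLH factors of lateral mesoderm, had differences of -8.02 ± 0.89 and -8.53 ± 0.73 (adjusted p = 6.69e-05 and 1.33e-06). Of the 2 members that went against the list, 1 was the paired-like homeobox gene Pitx1, named after its values were seen. It was at 51.05, 78.2 and 98.6 CPM in epithelium, against 0.156, 1 and 0.142 CPM in mesenchyme (7.38 ± 0.6, adjusted p = 8.57e-07).

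Among the E-box repressors of epithelial genes 5 of 7 were lower in Id2KO epithelium, and 1 was higher. Zeb1 was at 0.0827, 2.197 and 0.0263 CPM in epithelium, against 85.99, 81.6 and 84.3 CPM in mesenchyme (-6.74 ± 1.14, adjusted p = 0.00135). Snai1 was at 0.662, 0.924 and 0.2899 CPM in epithelium, against 15.1, 17.98 and 15.6 CPM in mesenchyme (-4.69 ± 0.62, adjusted p = 8.05e-05). Snai2 differed from both in that epithelium kept a steady level of it: 21.8, 22.4 and 15.6 CPM in epithelium, against 290.0, 302 and 321 CPM in mesenchyme (-3.93 ± 0.31, adjusted p = 7.01e-07). Twist2 was at 0.799, 0.0499 and 0.0263 CPM in epithelium, against 64.8, 59.8 and 83.8 CPM in mesenchyme (-7.91 ± 0.85, adjusted p = 1.78e-05), and Twist1 at 0, 0.02496 and 0 CPM in epithelium, against 15.5, 15.2 and 10.4 CPM in mesenchyme, where 1 count in epithelium made mesenchyme higher by a ratio of 1575 with an exact 95% counting interval of 282 to 62231. Zeb2 did not pass (-3.17 ± 1.08, adjusted p = 0.0532), with 3.005, 8.86 and 0.0527 CPM in epithelium spread widely and 42.95, 23.7 and 40.5 CPM in mesenchyme; it passed without Id2KO EpCAM+ replicate 2 (adjusted p = 0.0231) or 3 (adjusted p = 0.0209). The one member that was higher, Snai3, was at most 1.19 CPM and had 1 count in all mesenchyme libraries (adjusted p = 0.036). Its call was lost without Id2KO EpCAM+ replicate 1 or 3, Id2KO mesenchyme replicate 1 or 2, or any wild-type EpCAM+ replicate, with adjusted p of 0.0505 to 0.105.

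Mesenchymal matrix genes fell as a group: 19 of 22 were lower in Id2KO epithelium and 0 higher, with a median log2 fold change of -6.22. Col5a2, a fibrillar collagen chain, was at 0.221, 0.1997 and 0.184 CPM in epithelium, against 157, 140.2 and 191 CPM in mesenchyme (-9.63 ± 0.31, adjusted p = 1.1e-10). The small proteoglycan gene Dcn was at 0.138, 0.749 and 0.211 CPM in epithelium, against 169, 134 and 210.0 CPM in mesenchyme (-8.83 ± 0.56, adjusted p = 7.73e-08), and Fbn2, a fibrillin of embryonic microfibrils, at 0.1103, 1.07 and 0.448 CPM in epithelium, against 178, 124 and 185 CPM in mesenchyme (-8.19 ± 0.64, adjusted p = 1.1e-06). These genes were at or under 1.07 CPM in every Id2KO EpCAM+ library. Fn1, which encodes fibronectin, was 1 of the 3 members without a call and was singled out after its values were seen. It was at 269.7, 139.9 and 189 CPM in epithelium, against 132, 140.5 and 166 CPM in mesenchyme (0.45 ± 0.25, adjusted p = 0.229).

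Surface and filament genes of mesenchyme were lower in 8 of 12 cases and higher in 0, with a median of -4.14, or -3.81 with the gene at 0 in epithelium at its bound. Cdh11, a mesenchymal cadherin, was at 0.441, 3.12 and 0.264 CPM in epithelium, against 291, 263 and 345 CPM in mesenchyme (-7.86 ± 0.77, adjusted p = 1.52e-05), the reverse of Cdh1. Ncam1, a neural and mesenchymal adhesion molecule, was at 2.43, 3.095 and 3.29 CPM in epithelium, against 182, 152 and 209 CPM in mesenchyme (-5.94 ± 0.36, adjusted p = 3.69e-08), and Itga8, an integrin chain, at 0.0276, 0.599 and 0.0527 CPM in epithelium, against 72.5, 75.99 and 90.4 CPM in mesenchyme (-8.4 ± 0.69, adjusted p = 9.99e-07). The tissues did not overlap for these 3 genes.

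Of 17 basement membrane genes, whose products lie between the layers, 2 were higher, 3 were lower and 12 had no call, with a median of -0.20. Over all genes tested 13.2% were higher and 10.8% lower, so these counts are near the background. Lama5, the laminin chain of mature gut basement membrane, was at 53.8, 33.1 and 34.6 CPM in epithelium, against 7.37, 15.5 and 8.07 CPM in mesenchyme (1.97 ± 0.3, adjusted p = 0.000299). Nid1, which encodes the linker nidogen, was instead a mesenchyme gene, at 0.0827, 1.35 and 0.316 CPM in epithelium, against 175, 106 and 113 CPM in mesenchyme (-7.78 ± 1.48, adjusted p = 0.00313). The count of 3 lower members was 1 without Id2KO EpCAM+ replicate 3, Id2KO mesenchyme replicate 3, or any of the 3 wild-type mesenchyme replicates. Hspg2, which encodes perlecan and was chosen after its values were seen, overlapped between the tissues at 15.2, 7.86 and 9.04 CPM in epithelium, against 15.8, 13.3 and 12.8 CPM in mesenchyme (-0.38 ± 0.49, adjusted p = 0.639).

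The 12 largest falls all kept their call without each single library. Tnfrsf11b, the decoy receptor osteoprotegerin, was at 22.2, 45.96 and 19.4 CPM in mesenchyme with no count in epithelium, at least 369.7-fold lower in epithelium. Chrna3, a nicotinic receptor subunit of autonomic neurons, also had no count in epithelium and was at 31.03, 23.6 and 6.53 CPM in mesenchyme, at least 258-fold lower. Sparcl1, a matricellular protein gene, was at 0.0276, 0.02496 and 0.0263 CPM in epithelium, against 107, 87.4 and 101 CPM in mesenchyme. Frem1, a basement membrane-associated matrix gene, was at 0.0276, 0.02496 and 0.0263 CPM in epithelium, against 74.9, 52.8 and 133 CPM in mesenchyme, and Islr at 0, 0.0499 and 0.0527 CPM in epithelium, against 66.4, 50.9 and 72.3 CPM in mesenchyme. Mesenchyme means of the other 7 were 40.1 CPM for Nrxn3, 50.8 for Hoxc8, 29.1 for Zcchc5, 36.7 for Piezo2, 75.6 for Colec10, 46.1 for Bmp5 and 29.4 for Col6a3. Epithelial libraries were at most 0.105 CPM for all of these 7.

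The hedgehog pathway split by role. Of 3 ligand genes 2 were higher in Id2KO epithelium and 0 lower, whereas all 10 genes of reception and response were lower, with a median log2 fold change of -3.43. Shh, the sonic hedgehog ligand, was at 52.6, 30.4 and 62.8 CPM in epithelium, against 0.156, 0.0233 and 0.257 CPM in mesenchyme (8.41 ± 0.52, adjusted p = 5.47e-08). Ihh, the Indian hedgehog ligand of intestine, was at 121, 152 and 147 CPM in epithelium, against 0.468, 0.163 and 1.11 CPM in mesenchyme (7.93 ± 0.47, adjusted p = 3.39e-08), so each ligand was at most 1.11 CPM in any mesenchyme library. Ptch1, the hedgehog receptor and itself a target, was at 2.34, 3.44 and 3.53 CPM in epithelium, against 25.1, 30.6 and 39.7 CPM in mesenchyme (-3.35 ± 0.39, adjusted p = 2.48e-05). Hhip, a decoy receptor induced by the signal, was at 0.221, 5.09 and 0.0791 CPM in epithelium, against 70.6, 44.4 and 95.3 CPM in mesenchyme (-5.27 ± 1.26, adjusted p = 0.0117), with replicate 2 of epithelium apart from replicates 1 and 3. Gli1, the transcription factor that reads out the pathway, was at 0, 0.0998 and 0.0263 CPM in epithelium, against 18.5, 18.4 and 17.7 CPM in mesenchyme (-8.61 ± 1.29, adjusted p = 0.000229), so no epithelial library came near a mesenchymal one. The transducers Gli2 and Gli3 had differences of -7.32 ± 1.0 and -3.27 ± 0.28 (adjusted p = 9.83e-05 and 1.33e-06). The co-receptor genes Gas1, Boc and Cdon had differences of -3.51 ± 0.35, -6.7 ± 1.03 and -2.21 ± 0.39 (adjusted p = 5.33e-06, 0.000298 and 0.000911). Smo, the signal transducer, differed least, at 23.8, 27.3 and 18.9 CPM in epithelium, against 47.2, 31.6 and 42.1 CPM in mesenchyme (-0.79 ± 0.26, adjusted p = 0.0382). Its call was lost without Id2KO EpCAM+ replicate 1 (adjusted p = 0.0841) or 3 (0.136), Id2KO mesenchyme replicate 1 (0.122) or 3 (0.0887), or wild-type EpCAM+ replicate 2 (0.0535).

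Of 8 tested Wnt and R-spondin ligand genes 5 were lower in epithelium, 0 were higher and 3 had no call, while 11 of the 19 ligands were below the count filter. Rspo3, an R-spondin that amplifies Wnt signals, was at 0.0276, 0.0998 and 0.211 CPM in epithelium, against 113, 87.1 and 88.2 CPM in mesenchyme (-9.68 ± 0.47, adjusted p = 3.99e-09). Rspo1 was at 0.276, 0.1498 and 0.0263 CPM in epithelium, against 11.7, 31.4 and 19.04 CPM in mesenchyme (-7.08 ± 0.79, adjusted p = 1.64e-05). Wnt5a, which signals without beta-catenin and shapes the elongating gut, was at 7.17, 5.92 and 5.297 CPM in epithelium, against 97.8, 118 and 78.6 CPM in mesenchyme (-4.0 ± 0.26, adjusted p = 8.91e-08), low but present in every epithelial library. Wnt5b and Wnt4 had differences of -2.61 ± 0.52 and -3.75 ± 0.81 (adjusted p = 0.00217 and 0.00376). Wnt11 overlapped, at 11.1, 7.29 and 9.33 CPM in epithelium, against 9.08, 6.42 and 9.24 CPM in mesenchyme (0.16 ± 0.43, adjusted p = 0.831). Wnt7b, below the count filter and named after its values were seen, was at 0, 5.19 and 0 CPM in epithelium, with no count in mesenchyme, so it came from replicate 2 alone.

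Of 18 Wnt receptor genes 2 were higher in epithelium, 4 were lower and 12 had no call. The shares over all genes tested were 13.2% higher and 10.8% lower. Fzd5, a frizzled receptor of endoderm, was at 67.2, 57.9 and 60.7 CPM in epithelium, against 8.68, 4.93 and 9.63 CPM in mesenchyme (3.0 ± 0.32, adjusted p = 1.16e-05), and Lgr4, an R-spondin receptor, at 75.9, 65.8 and 65.5 CPM in epithelium, against 36.3, 31.2 and 30.5 CPM in mesenchyme (1.08 ± 0.18, adjusted p = 0.000533). Ror1, a receptor of Wnt5a, was at 16.2, 12.8 and 14.6 CPM in epithelium, against 34.5, 31.01 and 49.6 CPM in mesenchyme (-1.4 ± 0.3, adjusted p = 0.00363). The count of 4 lower receptors was 2 without Id2KO EpCAM+ replicate 2 or 3 or Id2KO mesenchyme replicate 1, and 0 with replicate 3 as the lone Id2KO EpCAM+ library.

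The secreted Wnt inhibitors were split between the layers, with 2 of 9 tested genes higher in epithelium and 4 lower. Sfrp5, a decoy of Wnt ligands and a marker of foregut endoderm, was at 764, 1066 and 854 CPM in epithelium, against 0.874, 0.512 and 0.7696 CPM in mesenchyme (10.29 ± 0.29, adjusted p = 3.82e-11). Sfrp1, of the same family, showed the opposite order, at 9.34, 25.8 and 14.7 CPM in epithelium, against 526, 509 and 624 CPM in mesenchyme (-5.06 ± 0.36, adjusted p = 2.25e-07). Dkk2, an inhibitor that binds Wnt co-receptors, was at 0.0551, 0.1498 and 0.8696 CPM in epithelium, against 68.2, 62.1 and 67.1 CPM in mesenchyme (-7.51 ± 0.83, adjusted p = 2.12e-05), and Frzb at 0, 0.1997 and 0 CPM in epithelium, against 10.7, 4.42 and 6.41 CPM in mesenchyme (-6.64 ± 1.15, adjusted p = 0.00078). Dkk3, a divergent member, was higher in epithelium (1.74 ± 0.34, adjusted p = 0.00175). The layers thus held different Sfrp genes, Sfrp5 in epithelium and Sfrp1 in mesenchyme. The promoter window of Sfrp5 is shown because the gene rose steeply in epithelium and also differed between the genotypes, as given further on. It covers the 250 bases before the start at chr19:42202253-42202502 on the minus strand of GRCm38.p6, from RefSeq, with CAGGTG in capitals.

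Sfrp5: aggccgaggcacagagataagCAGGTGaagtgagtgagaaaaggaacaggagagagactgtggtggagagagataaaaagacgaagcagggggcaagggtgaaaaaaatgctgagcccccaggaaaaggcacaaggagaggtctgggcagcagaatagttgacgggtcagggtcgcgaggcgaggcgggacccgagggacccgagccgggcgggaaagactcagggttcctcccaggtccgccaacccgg

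It held 1 match in these letters, against 2 in the Epcam window.

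Of 14 Wnt target and feedback genes 1 was higher in epithelium and 3 were lower, beside 13.2% higher and 10.8% lower over all genes. Rnf43, a ligase that removes Wnt receptors, was at 25.4, 13.8 and 26.4 CPM in epithelium, against 0.0312, 0 and 0 CPM in mesenchyme (adjusted p = 0.000584). Nkd1, another feedback inhibitor, went the other way, at 0.0551, 3.57 and 2.29 CPM in epithelium, against 28.03, 54.3 and 43.4 CPM in mesenchyme (-4.4 ± 0.82, adjusted p = 0.00164). Myc, a target with many other inputs, was at 43.6, 112 and 53.2 CPM in epithelium, against 428, 307 and 365 CPM in mesenchyme (-2.4 ± 0.31, adjusted p = 6.41e-05). Axin2, the target most used as a readout, was low and overlapping, at 0.799, 0.824 and 1.98 CPM in epithelium, against 3.53, 1.86 and 2.02 CPM in mesenchyme (-1.04 ± 0.89, adjusted p = 0.451). Without Id2KO mesenchyme replicate 1 the list had 2 higher members in place of 1.

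BMP ligands differed by gene: 2 of 8 tested were higher in epithelium and 4 lower. Bmp4, the main ligand of gut mesenchyme, was at 1.38, 1.12 and 2.06 CPM in epithelium, against 113, 99 and 134.6 CPM in mesenchyme (-6.25 ± 0.32, adjusted p = 7.46e-09). Bmp5 was at 0.0276, 0.02496 and 0.0263 CPM in epithelium, against 43.98, 36.1 and 58.1 CPM in mesenchyme, with 3 counts over all epithelial libraries, and mesenchyme was higher by a ratio of 1730 with an exact 95% counting interval of 592 to 8389. Gdf6 was also lower in epithelium (-6.71 ± 1.27, adjusted p = 0.00157). Bmp7 was the epithelial ligand, at 46.1, 52.2 and 47.1 CPM in epithelium, against 4.12, 8.35 and 2.51 CPM in mesenchyme (3.28 ± 0.43, adjusted p = 6.74e-05), and Bmp2 was at 10.9, 8.16 and 5.903 CPM in epithelium, against 0.531, 0 and 0.0285 CPM in mesenchyme (5.49 ± 1.32, adjusted p = 0.00796). The layers thus carried different BMP ligands, with Bmp7 and Bmp2 in epithelium and Bmp4, Bmp5 and Gdf6 in mesenchyme.

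Of 9 BMP receptor and Smad genes 0 were higher, 2 were lower and 7 had no call. Among all genes tested 13.2% were higher and 10.8% lower. Bmpr1a, a type I receptor, was at 119, 109 and 109 CPM in epithelium, against 199, 221 and 167 CPM in mesenchyme (-0.8 ± 0.19, adjusted p = 0.00669), and Acvr2a at 35.9, 31.1 and 35.5 CPM in epithelium, against 117, 79.3 and 56.7 CPM in mesenchyme (-1.3 ± 0.26, adjusted p = 0.00218). Bmpr1b, another type I receptor, named after its values were seen, was at 16.3, 13.4 and 23.9 CPM in epithelium, against 6.06, 1.63 and 6.19 CPM in mesenchyme (1.95 ± 0.7, adjusted p = 0.0569), so its groups were apart without a call, and it passed the test without wild-type mesenchyme replicate 1 (adjusted p = 0.0146) or 3 (0.0338), in DESeq2 (0.0197) and with 5 (0.0446) or 2 groups (0.0414) in the fit. Of 12 antagonists 6 were lower in epithelium and 0 higher. Fst, which encodes follistatin, was at 0.0827, 0.724 and 0.0263 CPM in epithelium, against 108, 131 and 86.9 CPM in mesenchyme (-8.56 ± 0.74, adjusted p = 2.05e-06). Nog, which encodes noggin, was at 1.599, 0.549 and 0.422 CPM in epithelium, against 22.8, 21.1 and 7.44 CPM in mesenchyme (-4.32 ± 0.57, adjusted p = 7.4e-05), and Grem1, which encodes gremlin, had a difference of -7.32 ± 1.23 (adjusted p = 0.000593). Smoc2, described above, was among the 6 antagonists without a call. Without Id2KO mesenchyme replicate 2 the antagonist list had 1 higher member.

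Of 9 BMP target genes 1 was higher in epithelium, 4 were lower and 4 had no call, beside 13.2% higher and 10.8% lower over all genes. The homeobox gene Msx2 was at 10.2, 4.69 and 14.4 CPM in epithelium, against 0.0312, 0.0233 and 0.05701 CPM in mesenchyme (7.93 ± 0.82, adjusted p = 8.06e-06). Id4, a sister gene of Id2, was a mesenchyme gene, at 2.34, 5.32 and 1.502 CPM in epithelium, against 26.1, 23.2 and 33.01 CPM in mesenchyme (-3.16 ± 0.49, adjusted p = 0.0003). Id3 was at 1120, 1097 and 1494 CPM in epithelium, against 1175, 1115 and 1233 CPM in mesenchyme, with overlapping libraries (0.08 ± 0.18, adjusted p = 0.809). Id1 was at 263, 267 and 412 CPM in epithelium, against 507, 449 and 473 CPM in mesenchyme (-0.6 ± 0.2, adjusted p = 0.0425). Its call was lost without each of the 10 libraries other than Id2KO EpCAM+ replicate 3 and wild-type EpCAM+ replicate 3, with adjusted p of 0.0509 to 0.154. The count of 4 lower targets was 2 without Id2KO EpCAM+ replicate 1 or 2 or Id2KO mesenchyme replicate 2.

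Of 10 tested PDGF and FGF ligand genes 4 were higher in epithelium and 1 was lower, and of 7 receptor genes 1 was higher and 3 were lower. The shares over all genes tested were 13.2% higher and 10.8% lower. Pdgfa, the ligand of the alpha receptor, was at 92.2, 83.7 and 88.2 CPM in epithelium, against 7.398, 10.8 and 10.6 CPM in mesenchyme (3.2 ± 0.26, adjusted p = 8.88e-07). Pdgfra, that receptor and the marker of subepithelial mesenchyme, was at 0.937, 0.2496 and 1.08 CPM in epithelium, against 179.6, 177 and 229 CPM in mesenchyme (-8.02 ± 0.94, adjusted p = 9.97e-05). Pdgfb was at 11.3, 5.52 and 7.85 CPM in epithelium, against 0, 0 and 0.05701 CPM in mesenchyme with 2 counts in mesenchyme, a ratio of 447 with an exact 95% counting interval of 123.4 to 3697, and Pdgfrb, its receptor on mural cells and mesenchyme, was at 2.398, 1.697 and 0.896 CPM in epithelium, against 23.5, 15.4 and 27.96 CPM in mesenchyme (-3.74 ± 0.63, adjusted p = 0.000606). Each of these named PDGF pairs thus had its ligand higher in epithelium and its receptor higher in mesenchyme. The ligand genes Pdgfc and Pdgfd are not reported here. The FGF genes named here had a ligand and a receptor on each side. Fgf9, a ligand that epithelium sends to mesenchyme, was at 42.1, 43.9 and 59.4 CPM in epithelium, against 10.7, 21.3 and 23.5 CPM in mesenchyme (1.39 ± 0.34, adjusted p = 0.00807). Fgf10, a ligand that mesenchyme sends to endoderm, was at 0, 0.599 and 0 CPM in epithelium, against 12.9, 17.98 and 11.2 CPM in mesenchyme (-6.09 ± 1.44, adjusted p = 0.00729). Fgfr4 was at 68.5, 50.6 and 45.01 CPM in epithelium, against 0.0936, 0.0233 and 0.142 CPM in mesenchyme (9.31 ± 0.58, adjusted p = 5.55e-08), and Fgfr1 at 33.9, 23.2 and 33.7 CPM in epithelium, against 71.7, 72.2 and 77.6 CPM in mesenchyme (-1.29 ± 0.21, adjusted p = 0.000545). Without Id2KO EpCAM+ replicate 2, Id2KO mesenchyme replicate 3 or wild-type mesenchyme replicate 3 the ligand list had 2 lower members. Without Id2KO mesenchyme replicate 2 or wild-type mesenchyme replicate 1 or 3 the receptor list had 2 higher members in place of 1, beside 3 lower.

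**Figure D3:**
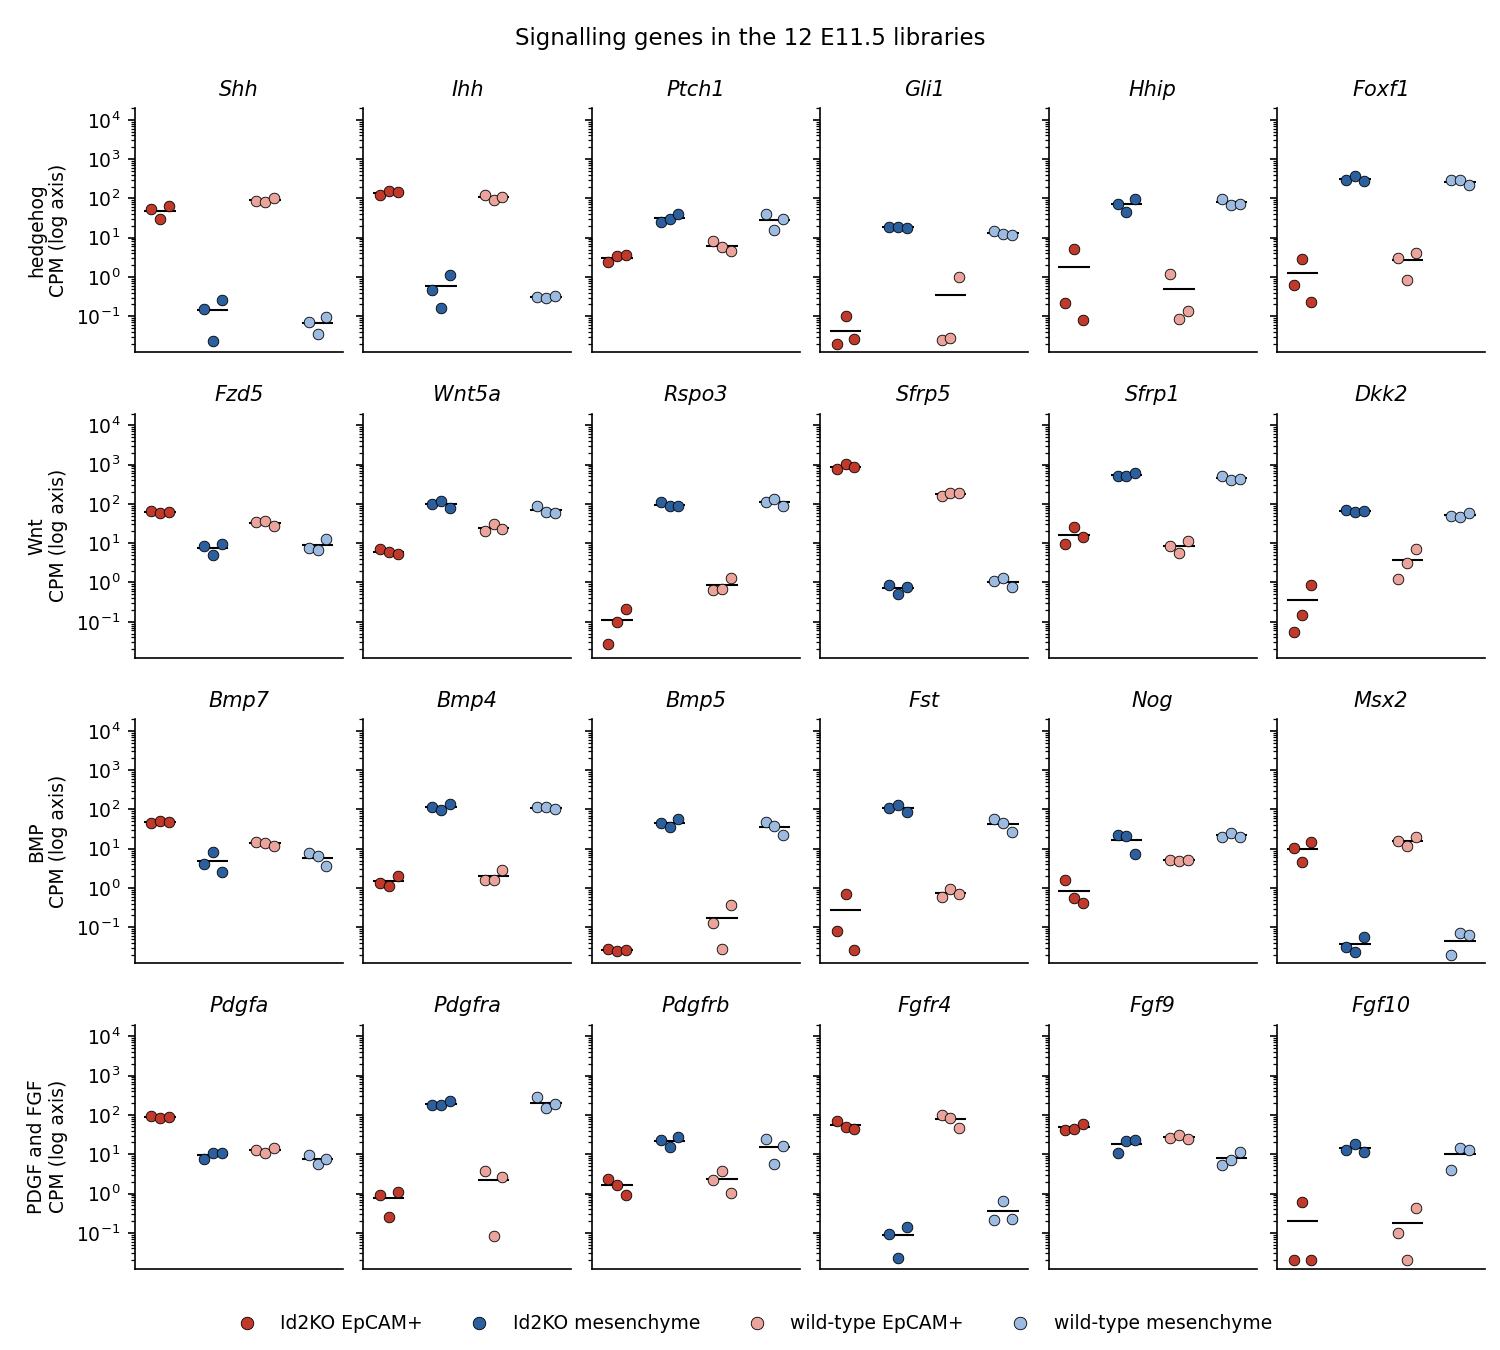
Points are the 12 libraries as TMM-scaled CPM on a log axis, lines are group means, and values under 0.02 are drawn at 0.02. Shh, Ihh, Sfrp5, Bmp7, Pdgfa and Fgfr4 were higher in Id2KO EpCAM+ cells, and Gli1, Rspo3, Sfrp1, Bmp4, Fst and Pdgfra in Id2KO mesenchyme.

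The E proteins, partners that Id2 binds, were present in both Id2KO tissues. Tcf3 was at 52.7, 118 and 72.4 CPM in epithelium, against 94.2, 136 and 122 CPM in mesenchyme (-0.53 ± 0.27, adjusted p = 0.179) and Tcf12 at 91.4, 105 and 127 CPM in epithelium, against 136, 129.5 and 119.5 CPM in mesenchyme (-0.25 ± 0.17, adjusted p = 0.326), both with overlapping libraries. Without Id2KO EpCAM+ replicate 2 Tcf3 passed the test (-0.88, adjusted p = 0.0165). Tcf4 was at 64.9, 43.3 and 60.6 CPM in epithelium, against 99.9, 73.04 and 85.3 CPM in mesenchyme (-0.61 ± 0.21, adjusted p = 0.0469). This call was lost without Id2KO EpCAM+ replicate 2 or 3, Id2KO mesenchyme replicate 1 or 3, any wild-type EpCAM+ replicate or wild-type mesenchyme replicate 2, with adjusted p of 0.0605 to 0.19. It was also lost under RLE size factors (adjusted p = 0.0526), with no filter on low counts (0.0548), with the red cell genes left out (0.0517) and with 2 groups in the fit (0.101). Of the 20 tested members of the list of E proteins and other bHLH factors, Tcf4 and Myc among them, 10 were lower in epithelium and 2 higher, and the count of 2 was 1 without Id2KO EpCAM+ replicate 3, Id2KO mesenchyme replicate 1, wild-type EpCAM+ replicate 1 or 2, or wild-type mesenchyme replicate 3. Among all genes tested 13.2% were higher and 10.8% lower. Tcf21, Hand1, Hand2, Twist1 and Twist2 are given above. Mycn, a Myc family factor of growing tissues, was higher in epithelium, at 91.6, 89.3 and 73.3 CPM in epithelium, against 25.3, 52.5 and 16.4 CPM in mesenchyme (1.43 ± 0.34, adjusted p = 0.00737), opposite to Myc. Atoh1, the bHLH factor of secretory cells, had no count in any of the 12 libraries.

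Hox genes, which give position along the body axis, were mesenchymal. Of 15 genes of paralogue groups 1 to 5, 14 were tested, 11 were lower in epithelium and 0 higher, with a median of -3.37. Hoxa4 was at 15.8, 9.84 and 12.6 CPM in epithelium, against 126, 129.9 and 156 CPM in mesenchyme (-3.43 ± 0.22, adjusted p = 8.65e-08). Hoxb5 was at 2.92, 1.897 and 2.53 CPM in epithelium, against 162, 94.7 and 119 CPM in mesenchyme (-5.68 ± 0.46, adjusted p = 8.51e-07). Hoxa5 and Hoxc4 had differences of -3.61 ± 0.32 and -3.41 ± 0.33 (adjusted p = 1.8e-06 and 4.07e-06), and epithelium kept several CPM of each. Of 21 genes of groups 6 to 13, 12 passed the count filter and those 12 were lower in epithelium, with 9 to 14 lower when 1 library was left out and the filter applied again; 9 had too few counts in both tissues, and passing the filter here rested on mesenchyme. Hoxb6 was at 0.827, 0.1498 and 2.29 CPM in epithelium, against 51.1, 48.99 and 50.3 CPM in mesenchyme (-5.52 ± 0.71, adjusted p = 5.89e-05), and Hoxc6 at 0, 0.125 and 0.738 CPM in epithelium, against 47.9, 43.96 and 41.6 CPM in mesenchyme (-7.25 ± 0.98, adjusted p = 0.000125). Hoxc8 was at 0.0276, 0.02496 and 0 CPM in epithelium, against 44.7, 70.6 and 37.1 CPM in mesenchyme, with 2 counts in epithelium, and mesenchyme was higher by a ratio of 2993 with an exact 95% counting interval of 828 to 24723. The genes of groups 10 and 11, picked after their values were seen, came mostly from 1 library. In Id2KO mesenchyme replicates 1, 2 and 3 Hoxd10 was at 1.25, 0.582 and 28.8 CPM, Hoxa10 at 0, 2.84 and 10.8 CPM, Hoxc10 at 0.0312, 1.33 and 11.3 CPM and Hoxd11 at 0, 0 and 6.27 CPM. Replicate 3 was thus the highest library for all 4, and wild-type mesenchyme was at most 0.541 CPM for any of them. The call of Hoxd10 was lost without that library (adjusted p = 0.084). That of Hoxa10 was lost without any one of the Id2KO EpCAM+ replicates or Id2KO mesenchyme replicate 2 or 3 (0.0678 to 0.129), and in DESeq2 (0.0651). Whether these libraries were cut from the gut at different levels was not tested.

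Genes of the adult crypt base stem cell were not a group with 1 direction: of 20 tested, 3 were higher in epithelium, 4 were lower and 13 had no call. The background over all genes was 13.2% higher and 10.8% lower. Sox9, an HMG-box factor of progenitors, was at 230.4, 427 and 324 CPM in epithelium, against 7.65, 6.51 and 3.05 CPM in mesenchyme (5.83 ± 0.43, adjusted p = 3.6e-07), and Hopx, a small homeodomain protein gene, at 196, 111 and 255 CPM in epithelium, against 2.34, 0.884 and 0.342 CPM in mesenchyme (7.32 ± 0.57, adjusted p = 8.17e-07). Tnfrsf19, a Wnt target also called Troy, was lower, at 3.58, 1.997 and 6.69 CPM in epithelium, against 27.6, 17.9 and 35.5 CPM in mesenchyme (-2.72 ± 0.41, adjusted p = 0.000222). Lrig1, an inhibitor of EGF receptor signalling, was at 3.97, 2.57 and 6.67 CPM in epithelium, against 25.4, 27.1 and 25.8 CPM in mesenchyme (-2.57 ± 0.39, adjusted p = 0.000273). The 4 lower members were 2 or 3 whichever single library was left out. They were 2 without Id2KO EpCAM+ replicate 1 or 2, Id2KO mesenchyme replicate 1 or 3, wild-type EpCAM+ replicate 2 or 3, or wild-type mesenchyme replicate 3.

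Replication and mitosis genes were lower in epithelium in 8 of 28 cases and higher in 0, with a median of -0.35. The background over all genes was 10.8% lower and 13.2% higher. Mki67, a nuclear antigen of cycling cells, was at 148, 152 and 159 CPM in epithelium, against 348, 261 and 300.3 CPM in mesenchyme (-0.99 ± 0.19, adjusted p = 0.00173). Top2a, a topoisomerase of dividing cells, was at 242, 289 and 346 CPM in epithelium, against 486, 517 and 428 CPM in mesenchyme (-0.71 ± 0.17, adjusted p = 0.00833), and Rrm2, a subunit of ribonucleotide reductase, at 376, 403 and 378 CPM in epithelium, against 652, 701 and 502 CPM in mesenchyme (-0.68 ± 0.16, adjusted p = 0.00787). The tissues did not overlap for these 3 genes, but the differences were small next to those of the tissue markers. The count of 8 was 5 without Id2KO EpCAM+ replicate 1, 4 without Id2KO EpCAM+ replicate 3 and 5 without Id2KO mesenchyme replicate 1; with Id2KO EpCAM+ replicate 3 as the lone epithelial library of that genotype it was 1.

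Of 11 tested fetal growth and RNA-binding genes 3 were higher in epithelium and 2 lower, beside 13.2% higher and 10.8% lower over all genes. H19, an imprinted growth-restraining RNA, was at 566, 604 and 716 CPM in epithelium, against 259.5, 347 and 276 CPM in mesenchyme (1.1 ± 0.2, adjusted p = 0.000993), and Peg3, a paternally expressed zinc finger gene, at 587, 716 and 698 CPM in epithelium, against 214, 222 and 329.7 CPM in mesenchyme (1.39 ± 0.25, adjusted p = 0.00101). Dlk1, an imprinted surface protein of progenitors, was lower, at 198, 552 and 215 CPM in epithelium, against 1428, 1239 and 1441 CPM in mesenchyme (-2.09 ± 0.32, adjusted p = 0.000307), and so was Hmga2, a chromatin protein of fetal growth, at 325, 197 and 369.7 CPM in epithelium, against 831, 668 and 801 CPM in mesenchyme (-1.37 ± 0.21, adjusted p = 0.000261). Imprinted genes thus fell on both sides.

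Markers of other cells showed what else the 6 libraries held. Summed red cell genes, 10 of 10 tested of which were lower in epithelium, were at 106, 84.9 and 109 CPM in Id2KO EpCAM+ libraries, against 54386, 22453 and 57659 CPM in Id2KO mesenchyme. Smooth muscle genes were lower in 7 of 9 tested cases, for example Actg2, an enteric actin, at 0.9096, 0.649 and 0.105 CPM in epithelium, against 435, 291 and 385 CPM in mesenchyme (-9.38 ± 0.65, adjusted p = 4.46e-07), and Myocd, the activator of smooth muscle genes, at 0.0551, 0.0749 and 0.0527 CPM in epithelium, against 54.8, 52.4 and 41.7 CPM in mesenchyme (-9.58 ± 0.71, adjusted p = 3.17e-07). Summed neural crest genes were at 16.3, 40.04 and 26.4 CPM in EpCAM+ libraries, against 419.7, 298 and 95.9 CPM in mesenchyme. Ret, the receptor of enteric neural crest, was at 0.0276, 0.424 and 0.0263 CPM in epithelium, against 21.3, 20.7 and 4.93 CPM in mesenchyme (-6.56 ± 1.2, adjusted p = 0.00122), so mesenchyme replicate 3 held the least. Neural crest calls numbered 7 of 12 lower, or 4 without Id2KO EpCAM+ replicate 1.

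Leucocyte genes were not particular to the Id2KO. In the wild type they summed to 1006, 246 and 116 CPM in EpCAM+ libraries, against 9.03, 10.9 and 43.3 CPM in mesenchyme. Of the 12 genes 5 were called higher in wild-type epithelium. In Id2KO embryos they lay on the epithelial side in 2 of 3 libraries, with sums of 1047, 1226 and 7.41 CPM in EpCAM+ libraries and 6.59, 10.6 and 6.33 CPM in mesenchyme. They were called higher in 10 of 12 cases, but in 4 without Id2KO mesenchyme replicate 1, 6 without replicate 2 and 4 without replicate 3, and in 1 with replicate 3 as the lone Id2KO EpCAM+ library. Mrc1, the mannose receptor of macrophages, and Ly86 were among the 12 largest rises, at 86.97, 116 and 0.343 CPM and 41.4, 45.4 and 0.0527 CPM in epithelium, and were lost without Id2KO mesenchyme replicate 2 (adjusted p = 0.0605) and without Id2KO mesenchyme replicate 3 (adjusted p = 0.0519). Over all genes 1269 were higher with replicate 3, the library almost free of leucocyte transcripts, as the lone Id2KO EpCAM+ library. There all 20 junction genes were higher and 19 of 22 matrix genes lower.

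Defining genes of hepatoblasts, most of them for secreted proteins of the liver, were higher in epithelium in 8 of 10 tested cases, with sums of 4007, 2506 and 2790 CPM in epithelium and 12.4, 22.8 and 12.3 CPM in mesenchyme. Within that list Alb was at most 1.17 CPM and Ahsg had no count in any of the 12 libraries. Afp, which encodes alpha-fetoprotein, was at 216, 132 and 153 CPM in epithelium, against 0.156, 0.326 and 0.314 CPM in mesenchyme (9.25 ± 0.32, adjusted p = 2.65e-10), Ttr, which encodes the thyroid hormone carrier transthyretin, at 201, 119 and 166 CPM in epithelium, against 0.281, 0.209 and 0.114 CPM in mesenchyme (9.64 ± 0.43, adjusted p = 2.06e-09), and Rbp4, which encodes the retinol carrier, at 1935, 1495 and 1450 CPM in epithelium, against 6.52, 6.35 and 3.08 CPM in mesenchyme (8.26 ± 0.41, adjusted p = 4.75e-09). Pancreatic genes were carried by replicate 2 of epithelium: Cpa1, a digestive enzyme gene, was at 0.1103, 411 and 0.0263 CPM in epithelium and at most 0.998 CPM in mesenchyme. Pancreatic calls were 3 higher of 8 tested, with 5 without Id2KO EpCAM+ replicate 1 or 3 and 1 without Id2KO EpCAM+ replicate 2 or any Id2KO mesenchyme replicate. Over all genes tested 13.2% were higher and 10.8% lower. Endothelial genes had 1 call of 8 tested, for a higher member, which is near the share of higher genes. Their summed levels overlapped, at 31.6, 37.5 and 42.9 CPM in epithelium and 25.8, 25.3 and 41.8 CPM in mesenchyme. That call was absent without Id2KO EpCAM+ replicate 1 or any Id2KO mesenchyme replicate, and 1 lower member was called without any single wild-type EpCAM+ replicate. Mesothelial genes had 2 higher and 3 lower members of 6 tested, with sums of 43.9, 41.6 and 40.4 CPM in epithelium and 62.8, 82.95 and 114 CPM in mesenchyme. The part of these cells in the gene differences was not tested.

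**Figure D4:**
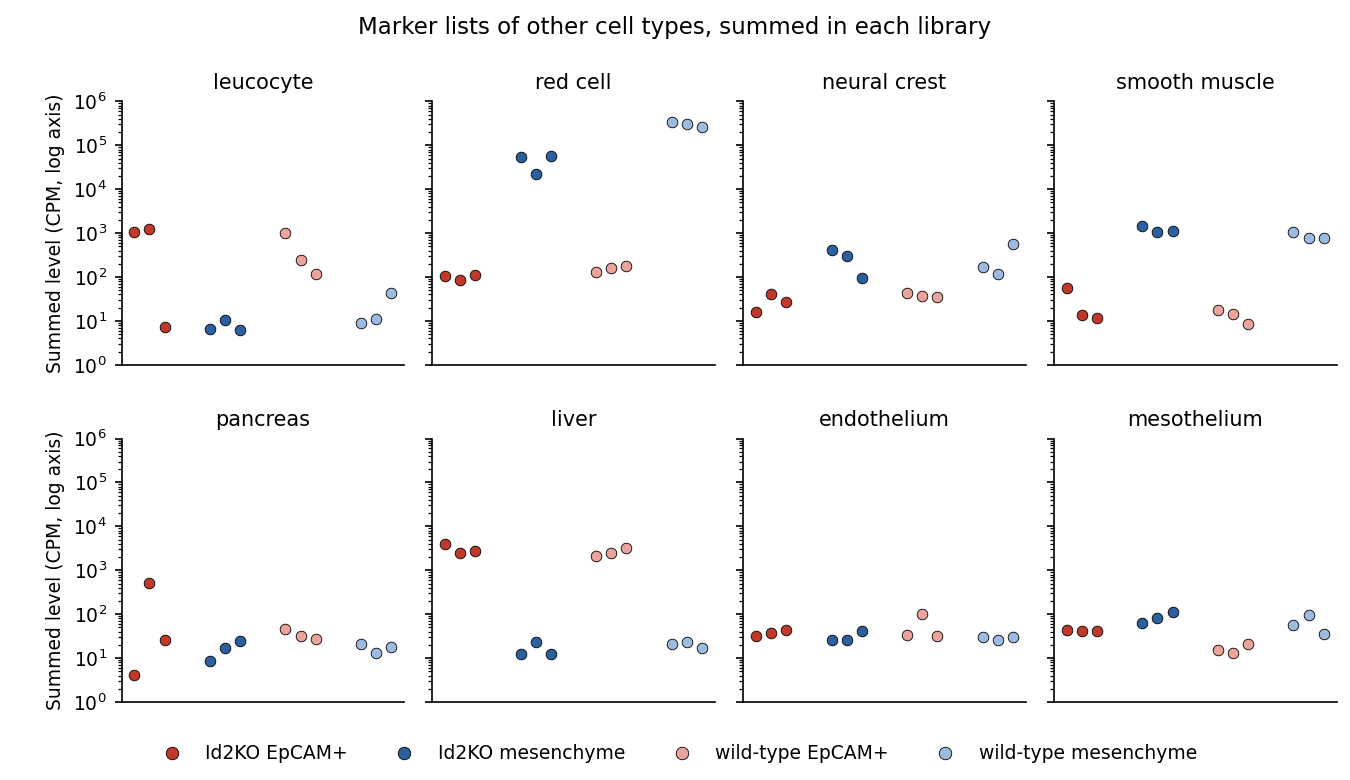
Each point is the summed TMM-scaled CPM of a marker list in 1 library, on a log axis. Leucocyte genes were high in 2 of 3 Id2KO EpCAM+ libraries and at 116 to 1006 CPM in wild-type EpCAM+ libraries. Pancreatic genes were high in 1 Id2KO EpCAM+ library, and red cell genes were lower in Id2KO mesenchyme than in wild-type mesenchyme.

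The last comparison asked whether the tissue difference of Id2KO embryos departed from that of the wild type. In the wild type 1808 genes (11.5%) were higher and 1670 (10.7%) lower in epithelium. Of these, 1409 were higher and 1140 lower in both genotypes, which is 68.2% of the Id2KO and 77.9% of the wild-type rises, and 67.4 and 68.3% of the falls. Opposite calls were fewer: 9 genes were higher in Id2KO and lower in wild-type epithelium, and 1 the reverse. The Pearson correlation of the 2 log2 fold changes across 15680 genes was 0.773, as a description, since genes are not independent replicates. The difference between the 2 tissue differences, Id2KO minus wild type, was positive for 66 genes (0.421%) and negative for 27 (0.172%). Of the 66 positive genes 49 had their larger genotype change in mesenchyme and 17 had it in epithelium. Of the 27 negative genes 24 had their larger change in epithelium. The direction of the larger change follows from the sign of the term and is not a separate result. For a positive term it must be lower in Id2KO mesenchyme or higher in Id2KO epithelium, and for a negative term the reverse.

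By the rule for naming, the 8 largest terms of each sign and the called list members came to 32 genes (Col3a1 among them), and 16 kept their call without each single library, most of which are described here. Smoc2, with the levels given above, had the term 7.02 ± 0.4 (adjusted p = 1.94e-06). Enpp3, a surface nucleotide phosphodiesterase, was at 93.8, 46.01 and 82.8 CPM in epithelium, against 0.218, 0.1396 and 0.0855 CPM in mesenchyme in Id2KO embryos, and at 21.4, 30.5 and 25.8 CPM in wild-type epithelium and 3.71, 7.22 and 3.53 CPM in wild-type mesenchyme (6.53 ± 0.58, adjusted p = 0.000118). It was thus higher in Id2KO epithelium and lower in Id2KO mesenchyme than in the wild type. Sfrp5 was at 764 to 1066 CPM in Id2KO epithelium, against 155, 190.0 and 185 CPM in wild-type epithelium (2.91 ± 0.33, adjusted p = 0.000816). Pdgfa was at 83.7 to 92.2 CPM in Id2KO epithelium, against 12.5, 10.99 and 14.4 CPM in wild-type epithelium (2.46 ± 0.35, adjusted p = 0.00461). In wild-type mesenchyme Sfrp5 was at 1.08, 1.299 and 0.785 CPM and Pdgfa at 9.66, 5.702 and 7.39 CPM. Id3, with 1097 to 1494 CPM in Id2KO epithelium and 1115 to 1233 CPM in Id2KO mesenchyme, was at 200.3, 286 and 295 CPM in wild-type epithelium and 1014, 1233 and 1281 CPM in wild-type mesenchyme (2.25 ± 0.25, adjusted p = 0.000816). Snai2 was at 15.6 to 22.4 CPM in Id2KO epithelium, against 4.78, 1.68 and 4.55 CPM in wild-type epithelium (2.37 ± 0.41, adjusted p = 0.0146).

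Several positive terms were of red cell genes. Klf1, the erythroid Kruppel-like factor, was at 18.2, 15.9 and 25.1 CPM in Id2KO mesenchyme, against 100.3, 108 and 99.2 CPM in wild-type mesenchyme (2.62 ± 0.37, adjusted p = 0.0044). Alas2, which starts haem synthesis in red cells, was at 89.8, 85.2 and 91.3 CPM in Id2KO mesenchyme, against 690.0, 509 and 501 CPM in wild-type mesenchyme (2.5 ± 0.37, adjusted p = 0.00596). Red cell genes summed to 54386, 22453 and 57659 CPM in Id2KO mesenchyme, against 336823, 306090 and 260569 CPM in wild-type mesenchyme. With the listed red cell genes left out 59 of the 66 positive and all 27 negative terms were called. Of the listed genes 5 had a positive term, and the loss of these was given in advance. Other red cell transcripts stayed in the counts. The part of red cells in the remaining terms was therefore not tested. Wdr65, not a member of the red cell list, was at 1.09, 1.44 and 7.098 CPM in Id2KO mesenchyme, against 36.05, 35.7 and 29.1 CPM in wild-type mesenchyme (7.9 ± 1.16, adjusted p = 0.00537). These mesenchyme levels make up only a part of the term. The rest comes from the epithelial levels, which are not reported here. Its tissue difference within Id2KO was -2.20.

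The negative terms included genes of mesenchyme whose level was higher in wild-type than in Id2KO epithelium. Col5a2 was at 0.184 to 0.221 CPM in Id2KO epithelium, against 5.11, 5.71 and 3.52 CPM in wild-type epithelium (-4.55 ± 0.34, adjusted p = 3.11e-05). Dcn was at 0.138 to 0.749 CPM in Id2KO epithelium, against 8.18, 5.59 and 4.47 CPM in wild-type epithelium (-3.9 ± 0.63, adjusted p = 0.00982). Wnt5a was at 5.30 to 7.17 CPM in Id2KO epithelium, against 20.2, 29.98 and 22.6 CPM in wild-type epithelium (-2.45 ± 0.33, adjusted p = 0.00352). Wt1, a zinc finger factor of mesothelium, was at 0, 0.0499 and 0 CPM in Id2KO epithelium, against 0.635, 2.58 and 0.893 CPM in wild-type epithelium (-6.72 ± 1.13, adjusted p = 0.0125), a fitted term over 2 counts in Id2KO epithelium and so no bound. Emilin3, an elastin microfibril interface gene, was at 0.1103, 0.1498 and 0.0791 CPM in Id2KO epithelium, against 1.702, 2.101 and 2.21 CPM in wild-type epithelium (-5.49 ± 0.8, adjusted p = 0.00537). By the median percentages above, matrix transcripts in epithelium were also higher in the wild type, relative to the mesenchyme of the same genotype. Their summed levels overlapped, at 1155, 740.5 and 844.3 CPM in Id2KO epithelium and 1107, 1250 and 1215 CPM in wild-type epithelium. The part of matrix transcripts in these terms was not tested. Esr1, an oestrogen receptor gene, was at 79.3, 119 and 95.3 CPM in Id2KO epithelium and 81.2, 122 and 132 CPM in Id2KO mesenchyme, against 4.37, 5.96 and 5.17 CPM in wild-type epithelium and 0.105, 0.361 and 0.262 CPM in wild-type mesenchyme (-4.59 ± 0.44, adjusted p = 0.000281). Both Id2KO tissues were thus above every wild-type library, and the Id2KO tissues overlapped. Rpl29, chosen after its values were seen, was at 0.698 to 1.6 CPM in the 6 Id2KO libraries, against 48.9 to 70.8 CPM in the 6 wild-type libraries, so the genotypes parted in a gene whose tissues overlapped.

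The terms of the last 2 marker genes were smaller. That of Col3a1 was -2.55 ± 0.48 (adjusted p = 0.0274). It lost its call without Id2KO EpCAM+ replicate 3 (adjusted p = 0.0821), Id2KO mesenchyme replicate 1 (0.0506) or 3 (0.0642), wild-type EpCAM+ replicate 1 (0.0554) or 3 (0.0829), or wild-type mesenchyme replicate 1 (0.0557), 2 (0.0833) or 3 (0.0803). That of Id2 was -0.61 ± 0.24 (adjusted p = 0.476).

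**Figure D5:**
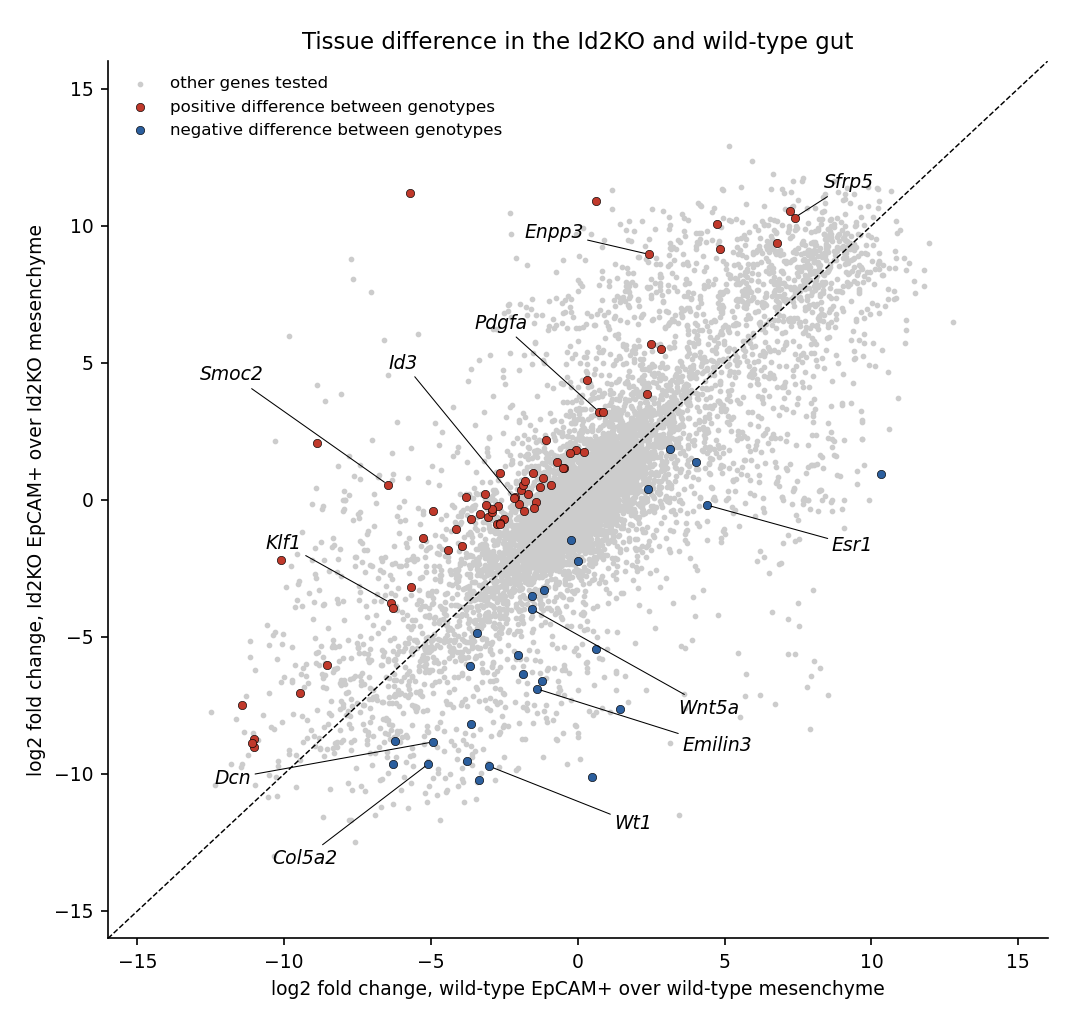
Each point is 1 of 15680 genes, with the log2 fold change of epithelium over mesenchyme in the wild type on x and in Id2KO on y; the dashed line marks equal differences. The 66 positive and 27 negative terms lie off that line, and Smoc2 was at 0.55 in Id2KO, against -6.47 in the wild type.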

How the data were processed

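The deposited files hold whole-number counts of reads per gene for 23366 genes, 1 file per library, and per the labels the reads were placed on mm9. The submitters' processing notes name HTSeq 0.6.1p1, STAR 2.3.1z13, DESeq2 1.6.3, SAMtools 1.2 and bcl2fastq 1.8.4, without their roles. The 5 category rows of each file were removed before library sizes were taken; in the Id2KO libraries they held non-unique alignments at 17.6 to 21.2% and reads without a gene at 12.4 to 22.1% of the file's total. No molecular identifiers are named, so reads after 15 cycles of amplification are not independent molecules, and intervals and floors cover counting error only. No replicate pair held identical values, and all pairs differed by more than sampling noise.

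Counts of the 4 E11.5 groups (12 libraries) were fitted together with edgeR 4.0.16 in R 4.3.3: TMM factors, filterByExpr by group (15680 genes kept), robust quasi-likelihood F tests and Benjamini-Hochberg adjustment over all genes. The 3 contrasts were epithelium over mesenchyme in Id2KO, the same in the wild type, and their difference. DESeq2 1.42.0, RLE size factors, no filter, a minimum log2 fold change of 1, 2 or 5 groups in the fit, the replicate number as a block, the table without red cell genes and each library left out in turn were alternatives; 2 sets of libraries in doubt were added after the data were seen. Genes at 0 in 1 tissue were set against a floor of 3 counts per library. Ratios resting on 1 to 3 counts carry exact 95% intervals. The test was checked on simulated counts.

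The members and the 34 gene lists were chosen with earlier results of these data known. Named genes were the markers, the 12 largest rises and 12 largest falls with at least 20 CPM and no overlap, up to 4 members of each list by the smallest p, tested members of the signalling, E protein and repressor lists, and the 8 largest terms of each sign of the genotype difference; exceptions are marked in the text, and some genes that the rule names are not reported here. Promoters were read from RefSeq tables of GRCm38.p6 by gene symbol.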

Additional observations from a re-analysis of the deposited data

Results flagged for a closer look

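The genes below differed between the genotypes in their difference of epithelium over mesenchyme, by the test of the difference itself in edgeR's quasi-likelihood fit (adjusted p under 0.05). Positive terms, Id2KO minus wild type on the log2 scale, were 7.90 for Wdr65, 7.02 for Smoc2, 6.53 for Enpp3, 2.91 for Sfrp5, 2.62 for Klf1, 2.50 for Alas2, 2.46 for Pdgfa, 2.37 for Snai2 and 2.25 for Id3. Negative terms were -6.72 for Wt1, -5.49 for Emilin3, -4.59 for Esr1, -4.55 for Col5a2, -3.90 for Dcn, -2.55 for Col3a1 and -2.45 for Wnt5a. All 3 Id2KO epithelial libraries were above all 3 wild-type ones for Smoc2, Enpp3, Sfrp5, Pdgfa, Snai2, Id3 and Esr1, and below them for Wt1, Emilin3, Col5a2, Dcn and Wnt5a. All 3 Id2KO mesenchyme libraries were below all 3 wild-type ones for Wdr65, Klf1, Alas2 and Enpp3, and above them for Smoc2 and Esr1. The genes were picked by their term in these same libraries, so the order of libraries describes them and adds no support. The wild-type libraries also differed from the Id2KO ones in their mixture of Xist and Ddx3y, whose part in these terms was not tested. Outlier tests do not apply to groups of 3.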

How the results depend on the processing

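The Id2KO counts of 2067 genes higher and 1692 lower stayed within 1.5 times under RLE size factors, DESeq2, no filter, 2 or 5 groups in the fit, and each library left out (1648 to 2047 higher and 1310 to 1670 lower). With 2 groups in the fit, where the wild-type libraries lend no spread, the Id2KO counts were 1488 higher and 1348 lower. Against a minimum log2 fold change of 1 they were 1091 and 856, with 958 higher and 796 lower in the wild type, a stricter test by construction. With replicate 3 as the lone Id2KO EpCAM+ library, assumed to vary like the other groups, 1269 genes were higher. List counts that moved by over 1.5 times with that library alone, beside those given in the report, were 2 lower neural crest genes, 0 lower BMP receptor genes, 1 higher BMP ligand, 1 higher Wnt inhibitor, 2 lower BMP targets, 1 lower basement membrane gene and 0 higher bHLH genes. Terms of the genotype difference depended more on the setting: 192 positive and 123 negative in DESeq2, and 25 and 13 against the minimum fold change. Negative terms numbered 60 without Id2KO EpCAM+ replicate 2 and Id2KO mesenchyme replicate 3, 78 with the lone library, and 16 (without Id2KO mesenchyme replicate 1) to 67 (without Id2KO EpCAM+ replicate 2) with 1 library out; the cause was not tested. Of the values of named genes, those that changed sign were without a call: Id3 at -0.083 without Id2KO EpCAM+ replicate 3 (range -0.083 to 0.18 with 1 library out), Cpa1 at -2.30 without Id2KO EpCAM+ replicate 2 (range -2.30 to 12.13), and with the lone library Cpa1 at -3.55 and Tcf12 at 0.022. Same-numbered Id2KO libraries had correlated deviations of 0.168, 0.255 and 0.095 over 10715 genes, and each correlated best with its own number, a hint from the data and not from the design. Xist and Ddx3y also split the Id2KO libraries of both tissues by the same numbers, replicate 1 against replicates 2 and 3. Whether same-numbered libraries shared an embryo was not tested, and the main fit did not pair them. In the wild type the same-numbered correlations were 0.055, -0.004 and -0.044. With the replicate block 2013 genes were higher and 1724 lower in Id2KO, and 62 terms were positive and 20 negative; Snai2 (adjusted p = 0.0979) and Col3a1 (adjusted p = 0.0995) had no call for their term, and neither did Smo and Snai3, while Lgr5 and Tcf3 had one, for their tissue difference. Leucocyte genes called higher were 5 with the block, against 10 without it; by 1 call each, the block also added a higher BMP receptor, a lower FGF or PDGF ligand and a higher receptor of these, and removed the higher endothelial gene. With 2 groups in the fit Id1 (adjusted p = 0.0908), Smo (0.0682) and Snai3 (0.0541) had no call. Depth limits genes near 0: a floor of 3 counts per library was 0.083 CPM on average in Id2KO mesenchyme.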
